A study of Mus musculus with 12 samples.

Results

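The serine and arginine-rich (SR) splicing factors are a family of RNA-binding proteins encoded in the mouse by the Srsf genes. The 10 genes described here, Srsf1, Srsf2, Srsf3, Srsf4, Srsf5, Srsf6, Srsf7, Srsf9, Srsf10 and Srsf11, were taken by symbol from a deposited count table of 24421 genes because they belong to the family; the choice was made with earlier results of these data known. All 10 passed the filter on low counts and were among the 14810 genes tested. RNA was sequenced from 12 libraries of mouse embryos on the C57Bl/6 strain, in 4 groups of 3. The groups were Eftud2+/- at embryonic day (E) 9.0, Eftud2-/- at E9.0, Eftud2+/- at E9.5 and Eftud2-/- at E9.5. The series describes the change in Eftud2 as specific to neural crest cells, the migratory cells that build much of the face and the cranial ganglia, and the heterozygotes served as controls, so every embryo carried at least 1 altered allele and there was no wild-type group. For the tissue the labels name 3 things: cranial nerve ganglia, cells of the neural crest, and, in the protocol, heads kept for RNA. Which driver made the change cell-specific, and how many embryos went into a library, is not given in the sources used here, so p-values measure the spread between these libraries.

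SR proteins bind exonic enhancer sequences through one or more RNA recognition motifs and, through a tail of arginine-serine repeats, recruit the spliceosome to nearby splice sites. Phosphorylation of that tail by SRPK and CLK kinases controls their entry into the nucleus and their release from nuclear speckles. Many SR genes limit their own level: the protein promotes inclusion of a "poison" exon, whose in-frame stop codon sends the transcript to nonsense-mediated decay (NMD). Eftud2 encodes the GTPase that belongs to the U5 particle, a core part of the same splicing machinery. The comparisons ask whether the RNA of the splicing regulators differed where this core component was altered, and between the stages.

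Library totals ran from 13914543 to 31172708 counts, and levels are given as CPM, the count of a gene scaled to a common library size. The row for Rn45s, the precursor of ribosomal RNA, took 4.40 to 5.90% of counts in the 6 libraries at E9.5. At E9.0 it took 6.05 to 16.2% in 5 libraries, but 37.4% in heterozygous replicate 1. Several results that rest on that library are given with and without it. Shares within the family and fits with the log2 Rn45s share as a covariate are given only with it. Eftud2 was at 302, 275 and 279 CPM in heterozygous and 236, 235 and 232 CPM in homozygous libraries at E9.0, a log2 difference of -0.29 ± 0.05 (SE; edgeR adjusted p = 0.0193). It missed the threshold without heterozygous replicate 1 (-0.25, edgeR adjusted p = 0.0645), homozygous replicate 1 (-0.29, edgeR adjusted p = 0.0601) or homozygous replicate 3 (-0.28, edgeR adjusted p = 0.0713). At E9.5 the difference was -0.19 ± 0.05 and did not pass (edgeR adjusted p = 0.0906). Averaged over the stages it was -0.24 (edgeR adjusted p = 0.00215), and by total counts alone it was -0.14 (edgeR adjusted p = 0.619). The libraries held RNA of several cell types. The summed level of 9 neural crest markers was 814 to 897 CPM in heterozygous and 787 to 850 CPM in homozygous libraries at E9.0, and 642 to 681 and 463 to 581 CPM at E9.5. The sum of 9 cranial ganglion neuron markers was 79.1 to 82.3, 81.0 to 81.8, 168 to 195 and 142 to 148 CPM in the same order, and no marker of either list was at 0 in any library. Single crest markers differed more than their sum: at E9.0, 7 of 9 lay below 0 in homozygous libraries, with a median log2 difference of -0.19. Among these 9, Tfap2b alone passed at E9.0 (-0.78, edgeR adjusted p = 0.000773). Because these are bulk samples, fewer cells of a type and less RNA per cell cannot be told apart.

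The structure of the genes bears on what a gene-level count of this family means. In the GENCODE M21 annotation of GRCm38, 9 of the 10 genes, all but Srsf10, had at least 1 transcript annotated as a target of NMD, against 20.8% of 21951 protein-coding genes. The count of 9 describes the annotation of a family known for autoregulation, with 4 to 19 annotated transcripts per gene. It is not a result of these libraries. The deposited counts are per gene and do not separate transcripts, so a change in poison exon use cannot be read from them, and the annotation used for counting is not given in the sources used here. The stretches below are shown because they are the sequences by which an autoregulated SR transcript ends early. Each is the start of an exon, up to the end of its reading frame, and each exon is one that is present in an NMD transcript and touches no exon of the gene's protein-coding transcripts, read 5′ to 3′ in the direction of transcription, with the premature stop codon in capitals.
Srsf3 poison exon: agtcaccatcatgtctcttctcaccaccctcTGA
Srsf7 poison exon: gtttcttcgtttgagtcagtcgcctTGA
Srsf11 poison exon: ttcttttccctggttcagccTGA

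The Srsf3 exon, exon 4 of 7 in its NMD transcript, lies at chr17:29039454-29039909 on the plus strand and is 456 bases long, of which 34, the stop included, lie in the annotated reading frame. The Srsf7 exon, exon 4 of 9, lies at chr17:80204622-80205081 on the minus strand and is 460 bases long, of which 28 lie in the reading frame. The Srsf11 exon, exon 4 of 9, lies at chr3:158024123-158024231 on the minus strand and is 109 bases long, of which 23 lie in it. These 3 were shown because their transcripts have a complete annotated reading frame from an ATG; exons of the same kind in Srsf4 and Srsf9, and another in Srsf11, lie in transcripts whose annotated reading frame does not begin with ATG and are not shown. The part of a gene's exonic sequence that lies outside its protein-coding transcripts ranged from 2.66% in Srsf1 to 66.9% in Srsf3, with 60.6% in Srsf11 and 58.5% in Srsf5. Levels set against length below therefore divide by the exons of protein-coding transcripts only, while the counts remain those of the whole gene. The order of the genes by these levels depends on that choice of length. For Srsf3 the length used is 2.62 kb, where all annotated exons span 7.90 kb. For Srsf1 these lengths are 5.56 and 5.71 kb.

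The SR genes were abundant in every library and differed among each other far more than between groups. Their summed level ran from 3830 CPM in heterozygous replicate 1 at E9.0 to 4726 CPM in homozygous replicate 2 at E9.0. Single genes had between 1441 counts (Srsf9) and 36382 counts (Srsf1) in a library. Per kilobase of protein-coding exon, averaged over the 12 libraries (mean ± SD), Srsf2, a resident of nuclear speckles, was highest at 274 ± 11.7 CPM per kb. Srsf3, the shortest SR protein and an adaptor for mRNA export, followed at 252 ± 22.2 CPM per kb, and Srsf1, the founding member and an oncoprotein in several tumours, at 198 ± 18.2 CPM per kb. The middle of the order held Srsf7, the member with a zinc knuckle, at 165 ± 12.1 CPM per kb, Srsf5 at 162 ± 22.0 CPM per kb and Srsf6 at 118 ± 8.95 CPM per kb, the latter pair carrying a second, divergent RNA recognition motif. The lowest levels were those of Srsf9, whose serine and arginine tail is unusually short, at 88.4 ± 6.77 CPM per kb, Srsf11, a more distant member that binds near splice sites and promotes inclusion of neuronal microexons, at 64.0 ± 6.04 CPM per kb, Srsf10, which represses splicing when dephosphorylated in heat shock and mitosis, at 48.9 ± 3.98 CPM per kb, and Srsf4, the member with the longest tail, at 46.8 ± 4.46 CPM per kb. Neighbours in this order kept their order in all 12 libraries except for 2 pairs: Srsf7 was above Srsf5 in 5 of 12 libraries, and Srsf10 was above Srsf4 in 9 of 12. Srsf2 shares 15.6% of its exonic sequence in the GRCm38 annotation with Mettl23 and 9.74% with Mfsd11, protein-coding genes on the opposite strand that had 112 to 521 and 124 to 416 counts per library. Strand use in counting is not given, so reads from the shared stretches cannot be told apart. The ratio of the highest to the lowest library ran from 1.17 for Srsf2 to 1.64 for Srsf5.

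**Figure D1:**
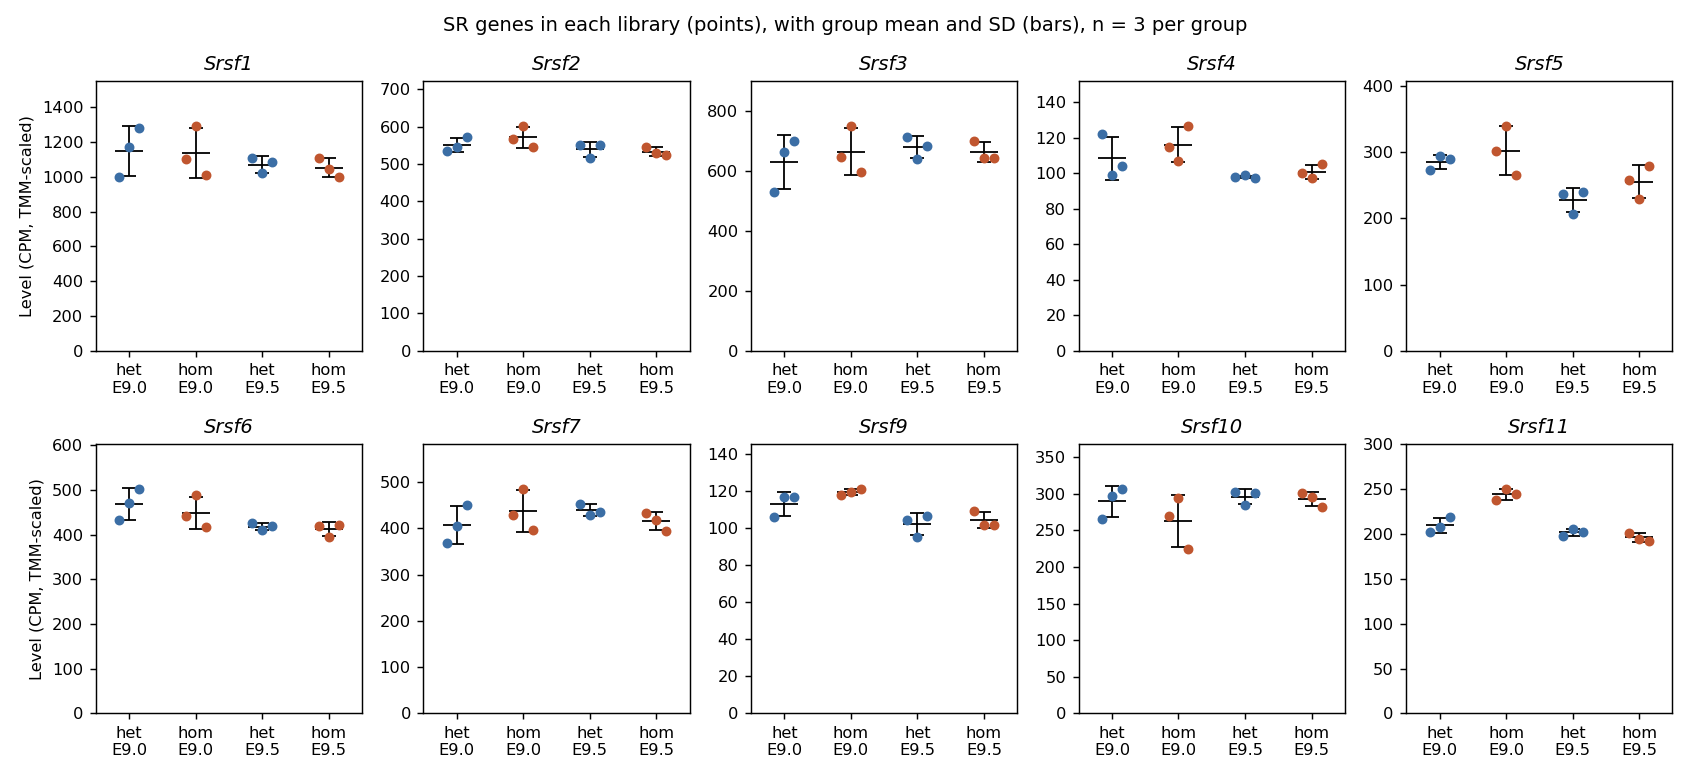
Normalised level of each of the 10 SR genes in CPM, 1 panel per gene, with 1 point per library and the mean and SD of each group of 3. The homozygous E9.0 libraries of Srsf11, at 237 to 250.3 CPM, sit above its other 9, at 192 to 218 CPM.

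In homozygous libraries at E9.0 no SR gene passed the test against heterozygous ones, and 0.587% of all tested genes did. The count of 0 of 10 is that of edgeR at an adjusted p under 0.05. At an unadjusted p under 0.05 edgeR counted 1 of 10, Srsf11, where 13.3% of all genes were counted, DESeq2 called 1 of 10, Srsf11 (1.46% of all genes), and limma-voom called 0 (0.439%). The log2 differences (homozygous minus heterozygous) ran from -0.14 for Srsf10 to 0.22 for Srsf11 with a median of 0.08, against -0.00 over all tested genes. That median rests on single libraries: it was 0.03 without heterozygous replicate 1 and 0.00057 without homozygous replicate 2. Their median size without sign was 0.08, against 0.11 over all genes and 0.07 over the 2384 genes with a mean of at least 90 CPM, a level that each SR gene exceeded.

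Srsf11 was the SR gene nearest to the threshold. It was at 202, 207 and 218 CPM in heterozygous libraries (209 ± 8.11, SD, n = 3) and at 237, 250.3 and 244 CPM in homozygous libraries (244 ± 6.51, n = 3). All 3 homozygous libraries lay above all 3 heterozygous ones. The log2 difference was 0.22 ± 0.05 (SE), with a 95% interval from 0.11 to 0.33, a fold of 1.16 (1.08 to 1.26), and an edgeR adjusted p of 0.0766. The difference stayed between 0.19 and 0.25 when each of the 6 libraries was left out, and none of these fits passed (edgeR adjusted p from 0.0806 to 0.269); without heterozygous replicate 1 it was 0.19 (edgeR adjusted p = 0.164). It passed under DESeq2 (0.22, DESeq2 adjusted p = 0.00108), upper-quartile scaling (0.25, edgeR adjusted p = 0.039) and offsets for GC content and length (0.28, edgeR adjusted p = 0.00681). It did not pass in the other 10 of 13 alternatives, with adjusted p from 0.052 to 0.251. The value was highest by total counts alone (0.41, edgeR adjusted p = 0.223), where the median of all genes was 0.19. The gene lies at chr3:158010473-158036639 on the minus strand and shares no exonic base with another annotated gene.

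The remaining SR genes gave overlapping groups, apart from Srsf9. Srsf9 was at 106, 117 and 117 CPM in heterozygous and 118, 119 and 121 CPM in homozygous libraries. Its groups did not overlap, yet the gap between them was about 1 CPM and the log2 difference was 0.08 ± 0.06 (edgeR adjusted p = 0.597). With 1 library left out that difference ran from 0.03 to 0.10. Groups without overlap were thus found for 2 of 10 SR genes, both higher, against 17.3% of all tested genes in either direction and 9.07% higher. Srsf10 was at 266, 297 and 307 CPM in heterozygous and at 270.2, 294 and 224 CPM in homozygous libraries, where replicate 3 lay below the other 5, and its log2 difference was -0.14 ± 0.08 with an interval from -0.32 to 0.03. That difference was -0.04 without homozygous replicate 3 and -0.23 without homozygous replicate 2, and passed in neither fit (edgeR adjusted p = 0.893 and 0.238). Srsf1, at 997, 1170.3 and 1280.0 CPM against 1102, 1292 and 1011 CPM, differed by -0.02 ± 0.09 (interval -0.21 to 0.18). Srsf2 was at 535, 546 and 571 CPM against 567, 601 and 544 CPM, with an interval from -0.07 to 0.17. For the 9 genes other than Srsf11 the intervals reached from -0.32 to 0.28, and a difference inside its own interval is not excluded for any of them.

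**Figure D2:**
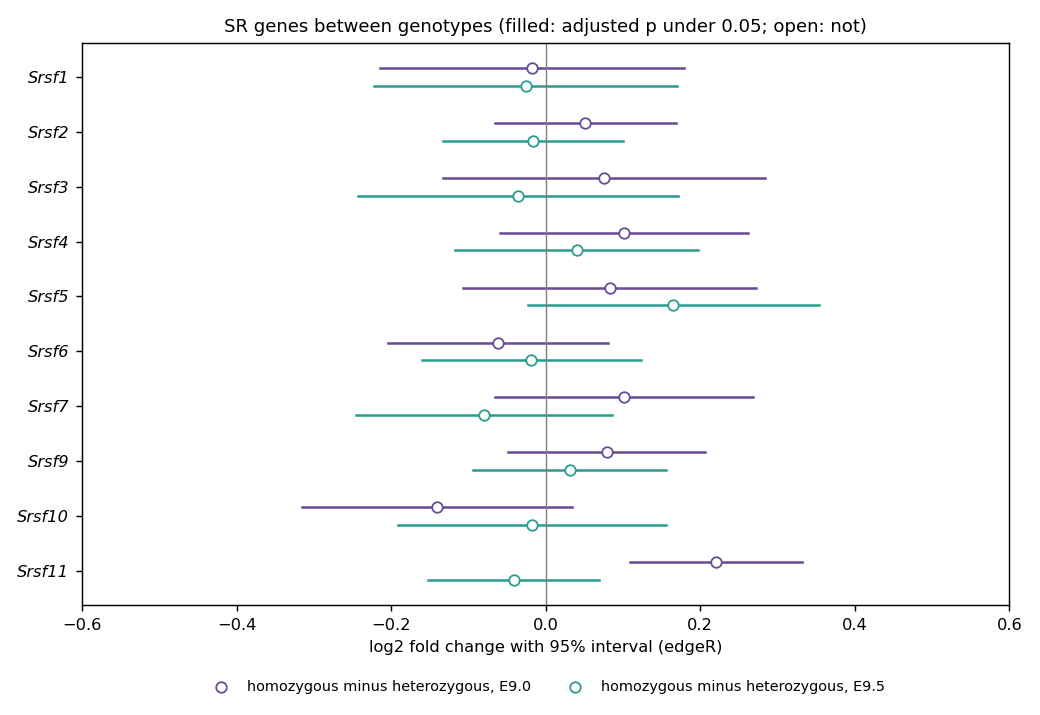
Log2 difference of homozygous minus heterozygous libraries for each SR gene at E9.0 and at E9.5, as points with 95% intervals from the edgeR fit. Srsf11 at E9.0 is the sole SR gene whose interval, 0.11 to 0.33, leaves out 0, and it does not pass after adjustment over all genes.

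At E9.5 the SR genes of the homozygous libraries were again close to those of the heterozygous ones. None of 10 passed in edgeR (background 1.89%), none was under an unadjusted p of 0.05 (13.4% of all genes were), DESeq2 and limma-voom called 0 (3.02 and 2.62% of all genes), and none had groups without overlap, against 20.9% of all genes. Log2 differences ran from -0.08 (Srsf7) to 0.17 (Srsf5) with a median of -0.02, which turned to 0.00185 without heterozygous replicate 1 and to 0.00399 without homozygous replicate 3. Srsf5, a member that responds to serum and insulin, was at 236, 207 and 240.2 CPM in heterozygous and 258, 229.6 and 279 CPM in homozygous libraries, and heterozygous replicates 1 and 3 lay above homozygous replicate 2. Its difference of 0.17 ± 0.09 had an interval from -0.02 to 0.35 and an edgeR adjusted p of 0.458. With 1 library left out that difference ran from 0.10 to 0.24. Srsf11 was at 198, 206 and 202 CPM against 201, 195 and 192 CPM, a difference of -0.04 ± 0.05 (interval -0.15 to 0.07). At the same stage 5 of 9 neural crest, 4 of 8 facial mesenchyme and 2 of 9 cranial ganglion neuron markers were lower and 6 of 7 endothelial markers higher in homozygous libraries by the same test. Of 6 heart muscle markers 1 was higher, and none passed of 7 erythroid and 6 neural tube progenitor markers. The part of these markers' cell types in the SR values was not tested.

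Averaged over the stages, no SR gene passed for genotype in edgeR (background 2.96%), 1 of 10, Srsf11, was under an unadjusted p of 0.05 (background 16.9%), and DESeq2 and limma-voom called 0 (4.38 and 2.61% of all genes). Srsf5 gave 0.12 ± 0.06 (interval -0.01 to 0.26, edgeR adjusted p = 0.335) and Srsf11 gave 0.09 ± 0.04 (interval 0.01 to 0.17, edgeR adjusted p = 0.225). The test of whether the genotype difference itself changed between stages called none of 10 (background 0.0675%), with 1 of 10, Srsf11, under an unadjusted p of 0.05 (background 8.6%), 1 of 10, also Srsf11, called by DESeq2 (0.513% of all genes), and 0 called by limma-voom (0.0338%). For Srsf11 the difference at E9.5 minus that at E9.0 was -0.26 ± 0.07 (interval -0.42 to -0.10, edgeR adjusted p = 0.276; DESeq2 adjusted p = 0.0286). The next largest was Srsf7, at -0.18 ± 0.11 (edgeR adjusted p = 0.689). For Srsf7 it ran from -0.26 to -0.09 with 1 library left out and from -0.37 to -0.02 in the other alternatives.

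Shares within the family need no scaling between libraries, because each gene is set against the summed counts of the 10 genes of its own library; the shares of a library add to 100% and so are not independent. At E9.0 the share of Srsf11 was 5.28, 4.86 and 4.81% in heterozygous libraries and 5.61, 5.30 and 6.18% in homozygous ones, a mean of 4.98 ± 0.260% against 5.70 ± 0.450% (SD, n = 3). The groups did not overlap, though the lowest homozygous share, 5.30%, was barely above the highest heterozygous one, 5.28%. The share of Srsf10 was 6.94, 6.95 and 6.77% against 6.39, 6.23 and 5.68%, without overlap and lower in homozygous libraries. Srsf6 took 11.1 ± 0.135% against 10.4 ± 0.125%, and Srsf7 took 9.66 ± 0.216% against 10.2 ± 0.108%, again without overlap. For each of these 4 genes the exact two-sided permutation p was 0.1, the smallest that 3 libraries against 3 allow, so the design cannot reach 0.05. These were 4 of 10 shares; 17.3% of all genes had groups without overlap at this stage in CPM, a scale on which genes are not tied to a common sum. At E9.5 the shares of all 10 genes overlapped between genotypes.

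**Figure D3:**
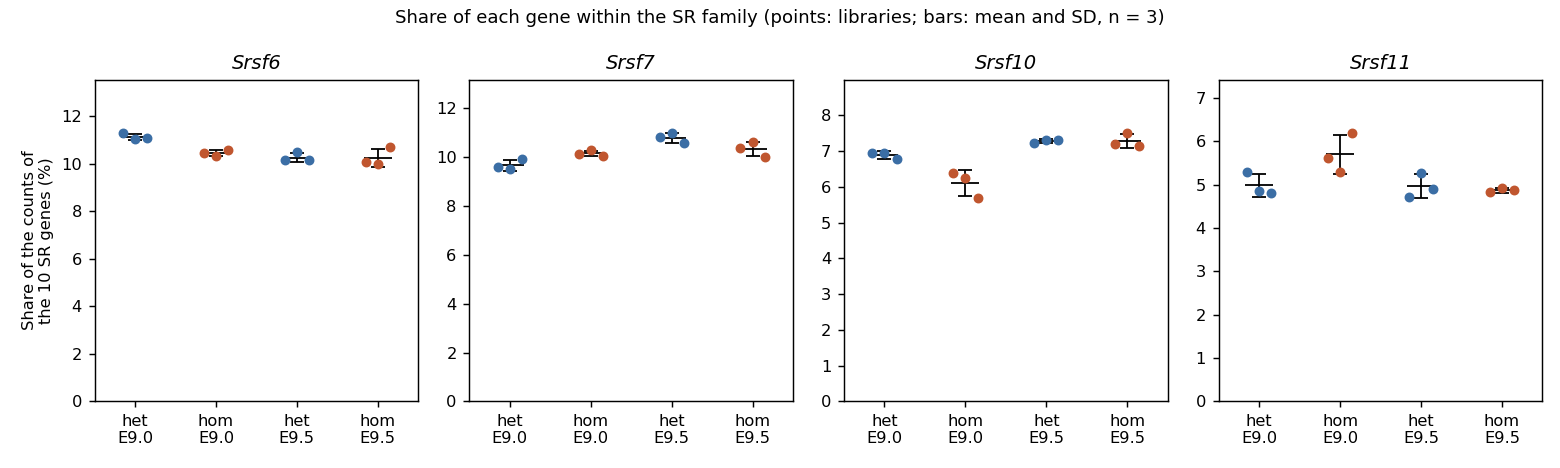
Share of the summed counts of the 10 SR genes taken by Srsf6, Srsf7, Srsf10 and Srsf11, in percent, with 1 point per library and the mean and SD of each group of 3. At E9.0 the genotypes do not overlap in any of the 4 panels, while at E9.5 they overlap in all 4.

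From E9.0 to E9.5 most SR genes stood lower, 7 of 10 in heterozygous and 9 of 10 in homozygous libraries. So did 1639 and 1583 of the 2384 genes with a mean of at least 90 CPM. In heterozygous libraries 1 of 10 SR genes passed, Srsf5, against 35.2% of all tested genes in either direction and 16% lower. In homozygous libraries 4 of 10 passed, Srsf4, Srsf5, Srsf9 and Srsf11, all lower, against 35.4% in either direction and 15.8% lower. Of the 2384 genes with a mean of at least 90 CPM, 772 were called lower in heterozygous and 757 in homozygous libraries. The median log2 difference (E9.5 minus E9.0) of the SR genes was -0.08 in heterozygous and -0.12 in homozygous libraries, beside 0.01 and 0.01 over all genes and -0.09 and -0.08 over those 2384 genes. It was -0.02 without heterozygous replicate 3 at E9.0 and -0.06 without homozygous replicate 2 at E9.0. Groups without overlap were found for 3 of 10 SR genes in heterozygous libraries (Srsf4, Srsf5 and Srsf6), all lower, where 47.7% of all genes had none and 22.5% were lower. In homozygous libraries they were Srsf4, Srsf9 and Srsf11, 3 of 10, all lower, against 48.2% and 22.1%. For Srsf4 in heterozygous libraries the lowest E9.0 level, 98.8 CPM, was barely above the highest E9.5 level, 98.7 CPM. Its log2 difference there ran from -0.20 to -0.05 with 1 library left out.

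Srsf5 fell in both genotypes, though among 13 alternatives in processing the call held in 11 for heterozygous and 7 for homozygous libraries. In heterozygous libraries it went from 274, 294 and 289 CPM at E9.0 to 236, 207 and 240.2 CPM at E9.5, with every E9.5 library below every E9.0 library. The log2 difference was -0.32 ± 0.09, a fold of 0.799 (edgeR adjusted p = 0.00997), and it passed with each of the 6 libraries left out (edgeR adjusted p from 0.016 to 0.0462); without heterozygous replicate 1 at E9.0 it was -0.35. In homozygous libraries it went from 302, 339.5 and 265 CPM to 258, 229.6 and 279 CPM, where E9.5 replicate 3 lay above E9.0 replicate 3. That difference of -0.24 ± 0.09 (edgeR adjusted p = 0.0448) passed when homozygous replicate 3 of either stage was left out and not when any of the other 4 was: the edgeR adjusted p was 0.0922 without E9.0 replicate 1, 0.225 without E9.0 replicate 2 (-0.15), 0.0924 without E9.5 replicate 1 and 0.206 without E9.5 replicate 2.

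Srsf11 fell in the homozygous libraries, from 237, 250.3 and 244 CPM to 201, 195 and 192 CPM, with no overlap. The log2 difference was -0.32 ± 0.05, a fold of 0.804 (edgeR adjusted p = 0.000223), and it passed with each of the 6 libraries left out. In heterozygous libraries it went from 202, 207 and 218 CPM to 198, 206 and 202 CPM, a difference of -0.05 ± 0.05 (interval -0.16 to 0.06). The difference between these stage changes is the same quantity as the interaction given above for Srsf11, which did not pass in edgeR. Both the genotype difference at E9.0 and this fall use the same 3 homozygous E9.0 libraries, which were the highest of the 12 for this gene.

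Srsf9 and Srsf4 made smaller moves. Srsf9 was at 118, 119 and 121 CPM in homozygous libraries at E9.0 and 109, 102 and 102 CPM at E9.5, a log2 difference of -0.20 ± 0.06 (edgeR adjusted p = 0.0169) that missed the threshold without E9.5 replicate 2 (edgeR adjusted p = 0.075) or E9.5 replicate 3 (edgeR adjusted p = 0.0737). In heterozygous libraries it went from 106, 117 and 117 CPM to 104, 95.3 and 106 CPM, a difference of -0.15 ± 0.06 (edgeR adjusted p = 0.0627), which passed without E9.0 replicate 1 (-0.19, edgeR adjusted p = 0.0261). Srsf4, which binds exonic enhancers like its relatives Srsf5 and Srsf6, went from 115, 107 and 127 CPM to 100.2, 97.0 and 105 CPM in homozygous libraries. Its difference of -0.20 ± 0.08 (edgeR adjusted p = 0.0457) passed without E9.0 replicate 2 and missed the threshold without each of the other 5 libraries, where the edgeR adjusted p was 0.082 without E9.0 replicate 1, 0.2 without E9.0 replicate 3 (-0.14), 0.106 without E9.5 replicate 1, 0.147 without E9.5 replicate 2 and 0.0571 without E9.5 replicate 3. In the GRCm38 annotation 43.0% of the exonic sequence of Srsf4 is shared with Gm12992 on the opposite strand, which had 20 to 86 counts per library, and reads of that pair cannot be told apart either. Srsf6 in heterozygous libraries went from 432, 471 and 503 CPM to 425, 409 and 418 CPM, all lower, with -0.17 ± 0.07 (edgeR adjusted p = 0.0644), and passed without E9.0 replicate 1 (-0.22, edgeR adjusted p = 0.0223), so that 3 of 10 SR genes passed without that library, where 29.7% of all genes did.

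The directions of the stage differences hold relative to the rest of the transcriptome. Scaling by total counts alone moved the median of all genes to 0.38 in the heterozygous and 0.18 in the homozygous comparison, and on that scale Srsf5 in heterozygous libraries was at 0.04, with the opposite sign, and Srsf11 in homozygous libraries at -0.15 (edgeR adjusted p = 0.527). With the Rn45s row taken out before scaling by totals, the medians of all genes were 0.11 and 0.08, Srsf5 in heterozygous libraries was at -0.23 (edgeR adjusted p = 0.0749), and Srsf11 in homozygous libraries still passed. The composition of the libraries also changed with stage: all 7 erythroid and all 6 heart muscle markers rose in both genotypes. Of 9 cranial ganglion neuron markers 8 were called higher in heterozygous and 7 in homozygous libraries. Of 9 neural crest markers 5 and 6 were called lower. Of 8 facial mesenchyme markers 4 were higher in heterozygous libraries, and 1 was higher and 1 lower in homozygous ones. Of 7 endothelial markers 4 were lower in heterozygous and 2 higher in homozygous libraries. Of 6 neural tube progenitor markers 2 were higher and 1 lower in heterozygous libraries, and 1 was higher and 1 lower in homozygous ones. The erythroid sum went from 664 to 1180 CPM in heterozygous and from 550.5 to 1211 CPM in homozygous libraries at E9.0 to 4049 to 5286 and 2830.3 to 5201 CPM at E9.5, and the heart muscle sum from 64.3 to 222 and 109 to 329 CPM to 1823 to 2481 and 2209 to 2934 CPM. The part of these cell types in the SR values was not tested.

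**Figure D4:**
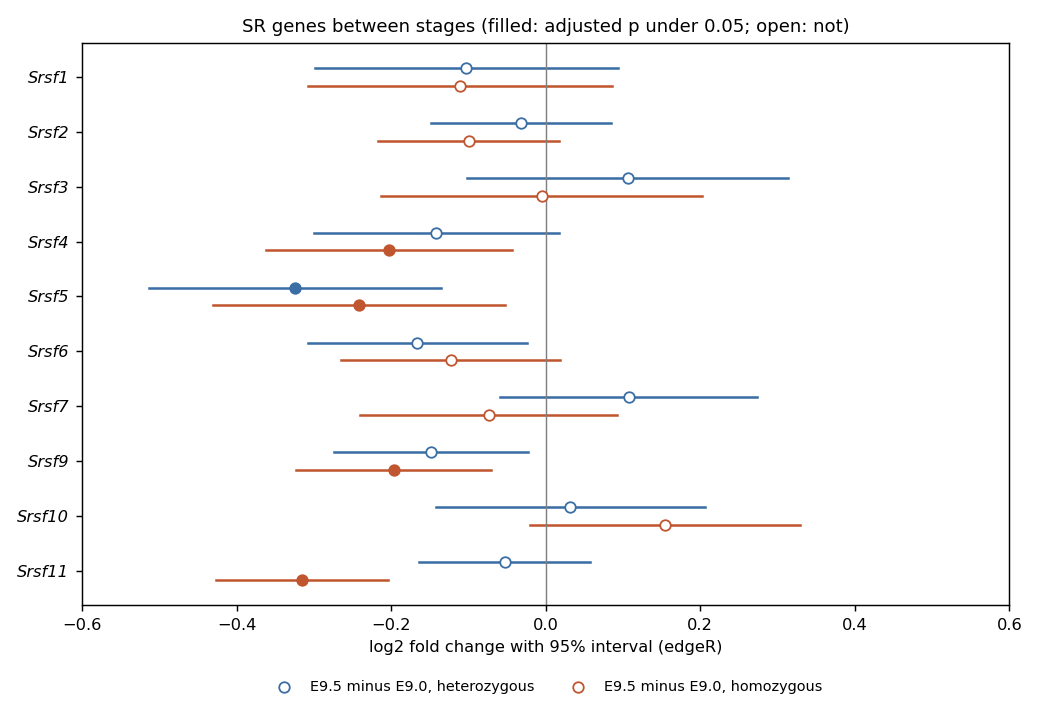
Log2 difference of E9.5 minus E9.0 for each SR gene in heterozygous and in homozygous libraries, with 95% intervals from the edgeR fit, filled where the adjusted p was under 0.05. The filled points are Srsf5 in heterozygous and Srsf4, Srsf5, Srsf9 and Srsf11 in homozygous libraries, between -0.32 and -0.20.

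Within the family, shares of Srsf3 and Srsf10 were higher at E9.5 in both genotypes. Srsf3 took 14.9 ± 0.960% of the family's counts at E9.0 and 16.7 ± 0.333% at E9.5 in heterozygous libraries, and 15.4 ± 0.394% and 16.5 ± 0.277% in homozygous ones. Srsf10 took 6.89 ± 0.103% and 7.28 ± 0.0477% in heterozygous and 6.10 ± 0.370% and 7.28 ± 0.189% in homozygous libraries. The share of Srsf5 went from 6.80 ± 0.396% to 5.60 ± 0.265% in heterozygous libraries, and that of Srsf11 from 5.70 ± 0.450% to 4.87 ± 0.0550% in homozygous ones. In heterozygous libraries Srsf7 also went from 9.66 ± 0.216% to 10.8 ± 0.196% and Srsf6 from 11.1 ± 0.135% to 10.3 ± 0.195%. In each of these 8 comparisons, 5 of 10 in heterozygous and 3 of 10 in homozygous libraries, the stages did not overlap, and the exact two-sided permutation p was 0.1, the smallest possible. In CPM 47.7 and 48.2% of all genes did not overlap between the stages. On the CPM scale Srsf10 did not pass in either genotype (0.03 ± 0.08 and 0.15 ± 0.08), nor did Srsf3 (0.11 ± 0.10 and -0.00 ± 0.10).

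The level of the family also moved with the Rn45s share of a library, a relation looked for after the values were seen. At E9.0 the summed SR level was 3830, 4267 and 4538 CPM in heterozygous libraries with 37.4, 15.1 and 12.5% of counts on Rn45s, and 4229, 4726 and 3946 CPM in homozygous libraries with 13.2, 6.05 and 16.2%. Over these 6 libraries Pearson's r was -0.811 (exact permutation p = 0.00556, adjusted over 22 relations 0.0244) and Spearman's rho was -0.943 (exact permutation p = 0.0167, adjusted 0.0458), and r was -0.863 over the 4 libraries left without the pair farthest from the median share. At E9.5, where the share spanned only 4.40 to 5.90%, r was -0.831 (exact permutation p = 0.0139, adjusted 0.0382), rho was -0.943 (exact permutation p = 0.0167, adjusted 0.0458) and r was -0.792 without the farthest pair. Each genotype alone has 3 libraries at a stage, too few for a relation of its own.

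The relation was not even across the family. A rho of -0.8 or lower was found for 5 of 10 SR genes at E9.0 and 4 of 10 at E9.5, against 7.83 and 4.92% of all tested genes. At E9.0 Srsf2 and Srsf7 followed the order of the Rn45s share in reverse without exception (rho of -1, exact permutation p = 0.00278, the smallest possible, adjusted 0.0204), and so did Srsf1 at E9.5. Srsf4 had a positive r at both stages, 0.519 and 0.572 (exact permutation p = 0.344 and 0.233, adjusted 0.421 and 0.302), and Srsf11 had r of -0.683 and -0.0322 (exact permutation p = 0.0806 and 0.969, adjusted 0.136 and 0.969). Without the farthest pair of libraries r stayed positive for Srsf4 at E9.0, at 0.46, but turned to -0.133 at E9.5. For Srsf11 it turned to 0.255 and 0.565. The signs of Srsf11, and that of Srsf4 at E9.5, thus rest on that pair. Without that pair r was -0.975 for Srsf2 and -0.973 for Srsf7 at E9.0 and -0.863 for Srsf1 at E9.5. Rn45s counts are part of the library totals from which the scaling of CPM starts. The median rho over all tested genes was 0.0286 at both stages. The cause of the relation was not tested. With the log2 Rn45s share as a covariate, added after the data were seen, 3 of 10 SR genes passed for genotype at E9.0: Srsf1 (-0.20, edgeR adjusted p = 0.0384) and Srsf10 (-0.29, edgeR adjusted p = 0.0227) were lower and Srsf4 (0.23, edgeR adjusted p = 0.0348) was higher in homozygous libraries, where 3.29% of all genes passed. Srsf11 then stood at 0.18 (edgeR adjusted p = 0.0571).

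**Figure D5:**
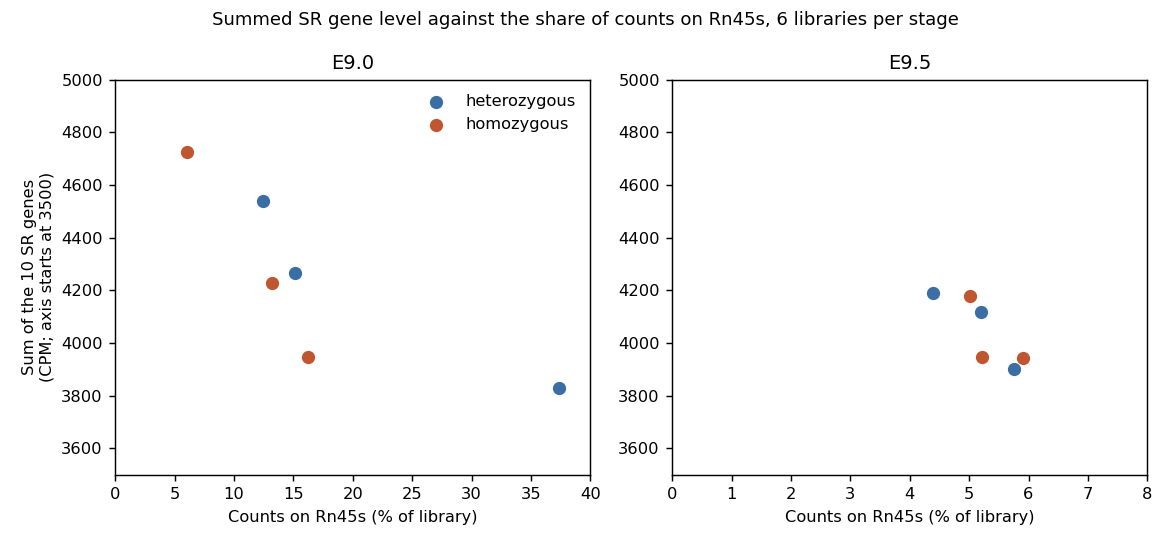
Summed level of the 10 SR genes in CPM (axis not from 0) against the percent of a library's counts on Rn45s, with 1 point per library and 1 panel per stage. The summed level tends to be lower where the share is higher, with 1 neighbouring pair out of order at each stage; it runs from 4726 CPM at 6.05% to 3830 CPM at 37.4% at E9.0 and from 4190 CPM at 4.40% to 3943 CPM at 5.90% at E9.5.

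The enzymes that act on SR proteins and the proteins that work beside them gave few calls for genotype. By the edgeR threshold none passed at E9.0 or at E9.5 of 9 SR protein kinases, 5 import and phosphatase genes, 20 SR-related splicing proteins and 27 heterogeneous nuclear ribonucleoproteins (hnRNPs), the last often opposed to SR proteins at exons. At an unadjusted p under 0.05 the counts were 2, 0, 5 and 1 at E9.0 and 0, 0, 0 and 2 at E9.5, where 13.3 and 13.4% of all genes were counted. Averaged over the stages, where 2.96% of all genes passed, 1 of these genes did, Srpk1, the cytoplasmic kinase that phosphorylates SR proteins for import. Srpk1 was at 202, 188 and 193 CPM in heterozygous and 163, 174 and 170.0 CPM in homozygous libraries at E9.0, and at 143, 144 and 149 against 138, 133 and 138 CPM at E9.5, with no overlap at either stage. The averaged log2 difference was -0.15 ± 0.04 (edgeR adjusted p = 0.0453); with each of the 12 libraries left out it lay between -0.16 and -0.13 and passed in 1 of 12 fits (edgeR adjusted p from 0.0475 to 0.12), failing in all but the one without homozygous replicate 2 at E9.0. Of 12 other alternatives it passed in 5. Srsf12, an SR gene outside the 10, was at 1.29 to 2.09 CPM and did not pass in any comparison.

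Between the stages more of these genes passed, against 16 and 15.8% of all genes lower in heterozygous and homozygous libraries, and 772 and 757 lower of 2384 genes with a mean of at least 90 CPM. Of 20 SR-related proteins 10 were lower in heterozygous and 12 in homozygous libraries, with none higher. Srrm1, a coactivator that bridges SR proteins and the spliceosome, had a log2 difference of -0.45 ± 0.09 in heterozygous libraries (edgeR adjusted p = 0.00115), and Scaf4, which binds the RNA polymerase II tail, of -0.50 ± 0.10 (edgeR adjusted p = 0.00171). With each of the 6 libraries left out both passed, at -0.54 to -0.32 for Srrm1 and -0.57 to -0.36 for Scaf4. Neither passed by total counts alone (-0.06 and -0.10) or with the log2 Rn45s share as a covariate (-0.02 and 0.0013). Of 27 hnRNP genes 14 and 13 were lower and 1 was higher in each. Hnrnpd, which binds AU-rich elements, went from 510.4, 498 and 501 CPM to 290.1, 305 and 354 CPM in heterozygous libraries (-0.67 ± 0.07, edgeR adjusted p = 2.65e-06). Pcbp2, a poly(C)-binding protein, gave -0.43 ± 0.14 (edgeR adjusted p = 0.0305), which fails without heterozygous E9.0 replicate 1 (-0.24, edgeR adjusted p = 0.101), E9.5 replicate 1 (edgeR adjusted p = 0.0994) or E9.5 replicate 3 (edgeR adjusted p = 0.0807). Among the kinases 3 were higher and 2 lower in heterozygous and 2 higher and 2 lower in homozygous libraries, where 2840 and 2896 of 14810 genes were higher. Of 5 import and phosphatase genes 1 was higher and 2 lower in heterozygous and 3 were lower in homozygous libraries. Srpk3, a kinase of muscle, was at 0.0430 to 0.147 CPM in heterozygous libraries at E9.0 and at 2.64 to 2.81 CPM at E9.5. It moved in the same direction as the heart muscle markers, among 2840 of 14810 genes called higher in these libraries. The cause was not tested. The E9.0 libraries held only 2, 1 and 1 counts of Srpk3, so the size of its log2 difference is not well fixed. That difference was 5.12 ± 0.41 in the main fit (edgeR adjusted p = 2.18e-07). It ran from 4.78 to 5.68 with 1 library left out and from 4.81 to 6.79 in the other alternatives.

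Over the 12 libraries the averaged profile of the 10 genes (each gene's log2 CPM centred on its own mean) was lowest in heterozygous replicate 2 at E9.5, at -0.10, and highest in homozygous replicate 2 at E9.0, at 0.17. Of 9239 genes outside the family with a mean of at least 10 CPM, the 5 whose profile was nearest were Cct2 and Tcp1, subunits of the cytosolic chaperonin, at root-mean-square differences of 0.0283 and 0.0351 on the log2 scale, Pno1, a factor of small ribosomal subunit assembly, at 0.0339, Hnrnpf at 0.0353 and Api5, an inhibitor of apoptosis, at 0.0362. The median gene was at 0.147. Within the family the closest pair was Srsf3 and Srsf7, at 0.0533, and the most distant pair was Srsf4 and Srsf10, at 0.239.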

How the data were processed

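The authors deposited raw gene counts for 12 libraries (3 in each of 4 groups, matched to samples through the fastq names in the labels), and all 12 columns were used. Adapter trimming with cutadapt, alignment with STAR to mm10, counting with featureCounts and MultiQC are named in the submitters' processing notes; tool versions, strand setting and gene annotation are not given in the sources used here. Groups were taken from the labels.

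Counts were analysed with edgeR 4.0.16 in R 4.3.3: genes low in every group were removed (filterByExpr; 14810 of 24421 kept), libraries were scaled by TMM, and 1 quasi-likelihood model with robust dispersions held the 4 group means (common biological coefficient of variation 8.77%). Tests were two-sided, with Benjamini-Hochberg adjustment over all 14810 genes and a threshold of 0.05; ± after a log2 difference is its standard error. CPM are on TMM-scaled totals. The alternatives used DESeq2 1.42.0 and limma 3.58.1, and the fitting code was tested on simulated data. Gene positions, transcript types and exon lengths came from GENCODE M21 on GRCm38. The labels do not say that replicate numbers mark pairs, and the numbers were not used as a block in the main fit. No replicates were copies of each other (chi-square per gene 10.5 to 313). The members and lists were chosen with earlier results of these data known. The text names all 10 SR genes, and from the other lists those past the threshold for genotype and the 6 largest stage changes in heterozygous libraries, of which 1 is not reported here.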

Additional observations from a re-analysis of the deposited data

How the results depend on the processing

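The log2 differences that changed sign are given first, then counts of SR genes and single calls. At E9.0 between genotypes, Srsf1 was at 0.0079 with upper-quartile factors, 0.039 with GC and length offsets and 0.0084 without the Rn45s row; by total counts Srsf1, Srsf6 and Srsf10 were at 0.16, 0.13 and 0.049, where the median of all genes was 0.19. Between stages in heterozygous libraries, total counts gave 0.25 for Srsf1, 0.34 for Srsf2, 0.25 for Srsf4, 0.041 for Srsf5, 0.19 for Srsf6, 0.21 for Srsf9 and 0.31 for Srsf11 (median of all genes 0.38), and leaving out the Rn45s row gave 0.067 for Srsf2 and 0.045 for Srsf11. In homozygous libraries total counts gave 0.050, 0.066, 0.16, 0.042 and 0.089 for Srsf1, Srsf2, Srsf3, Srsf6 and Srsf7, and Srsf3 was at 0.033 with no filter and 0.062 without the Rn45s row. The covariate of the log2 Rn45s share, added after seeing the data, gave -0.0097, -0.12, -0.027 and -0.045 for Srsf2, Srsf3, Srsf5 and Srsf7 between genotypes at E9.0. Between stages in heterozygous libraries it gave -0.35, 0.17, -0.23 and -0.30 for Srsf3, Srsf4, Srsf7 and Srsf10, and 0.0013 and 0.20 for Scaf4 and Pcbp2. In homozygous libraries it gave -0.019 for Srsf10. Stage and Rn45s share differ together, so their parts in these values cannot be told apart.

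The number of SR genes past the threshold at E9.0 between genotypes was 1 with upper-quartile factors, DESeq2 or GC and length offsets (0.763, 1.46 and 1.15% of all genes) and 3 with the covariate (3.29%), against 0; averaged over stages it was 2 with the covariate (6.04% of all genes), and the interaction gave 1 with DESeq2. In heterozygous libraries between stages it was 3 with RLE factors, DESeq2 or GC and length offsets (35.8, 35.5 and 39.9% of all genes), 2 by total counts (Srsf3 and Srsf7, higher; 47.2%), 0 without the Rn45s row (35.9%) and 7 with the covariate (20.9%), against 1. In homozygous libraries it was 0 by total counts (22.5%), 1 with no filter or without the Rn45s row (22.1 and 35.5%), 2 without robust dispersions (35.1%), 7 with GC and length offsets (40.5%) and 8 with the covariate (31.4%), against 4. Calls of other named genes also changed. Eftud2 at E9.0 missed the threshold by total counts (-0.08, edgeR adjusted p = 0.751) and with only the groups compared (-0.28, edgeR adjusted p = 0.141). Srpk1 missed it in 7 of 12 alternatives, by total counts at -0.05 (edgeR adjusted p = 0.868). By total counts Hnrnpd (-0.30), Scaf4 (-0.10), Srrm1 (-0.06) and Pcbp2 (-0.02) missed it between stages, as did Srrm1 with the covariate (-0.02), and Pcbp2 also with no filter, only the groups compared, GC and length offsets or no Rn45s row. Srsf4 between stages in homozygous libraries missed it under limma-voom (limma adjusted p = 0.0504) and with a mean of at least 50 counts (edgeR adjusted p = 0.0505), and Srsf5 with only the groups compared (edgeR adjusted p = 0.0565). The cause was not tested.

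Leaving out 1 library at a time gave 1 to 3 of 10 SR genes in the heterozygous and 1 to 4 of 10 in the homozygous stage comparison. In the same fits 27.2 to 32.5% and 27 to 31.7% of all genes passed. The ranges with 1 library left out spanned 0 between genotypes at E9.0 for Srsf1 (-0.12 to 0.065), Srsf3 (-0.038 to 0.16) and Srsf5 (-0.010 to 0.17). At E9.5 they did so for Srsf1 (-0.062 to 0.0092), Srsf2 (-0.044 to 0.0039), Srsf3 (-0.074 to 0.0042), Srsf6 (-0.034 to 0.015), Srsf9 (-0.013 to 0.066) and Srsf10 (-0.043 to 0.0099). Between stages they did so for Srsf3 (-0.0046 to 0.19) and Srsf10 (-0.026 to 0.075) in heterozygous, and Srsf3 (-0.077 to 0.095) and Srsf7 (-0.14 to 0.013) in homozygous libraries. Srsf10 in homozygous libraries passed without E9.0 replicate 2 (0.25, edgeR adjusted p = 0.0317).

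Same-numbered libraries deviated together with correlations of 0.109 at most. Between genotypes, 2 of 6 libraries at E9.0 and 3 of 6 at E9.5 correlated best with the library of their own number. In each stage comparison 1 of 6 did. Such values do not exclude a pairing or a shared preparation, and the labels name neither. With a replicate block, 69 genes passed for genotype at E9.0 against 87 without it; among the named results Srsf5 in homozygous libraries (-0.24, edgeR adjusted p = 0.067) and Srpk1 (-0.15, edgeR adjusted p = 0.0777) no longer passed. With 3 libraries a group, small differences of these genes are beyond the precision of the data, and gene counts do not separate isoforms.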
